A study of Mus musculus with 4 samples.

Results

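Imprinted genes are expressed mainly or only from the copy inherited from one parent. The 34 listed here were taken from the best-known mouse imprinted domains and single loci, by gene name, with earlier results of these data known. Of these, 31 were measured by a probe set that carries 1 gene symbol, among 22180 named genes in all, and each gene was represented by its probe set with the highest mean. H19, Snrpn and Rtl1 are read here only through probe sets that carry several symbols and were not analysed. Expression was measured on single-channel Affymetrix arrays hybridised with biotin-labelled total RNA from lines of mammary tumour cells of female FVB mice. The tumours arose in the MMTV-NIC model, in which the mouse mammary tumour virus promoter drives 1 transcript that encodes both an activated ErbB2 receptor and Cre recombinase, and all arrays share this background. Cells received the vehicle DMSO (2 arrays) or 2 µM GSK126 (2 arrays) for 96 h, in a medium with serum, EGF, hydrocortisone, insulin and bovine pituitary extract. GSK126 inhibits EZH2, the enzyme that places the repressive histone mark H3K27me3. The labels do not say whether the replicates are separate cultures or separate lines, so p-values cover the spread among the 4 arrays alone, and that spread may be technical. The arrays measure the sum of both parental copies, and which copy was expressed was not measured.

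Most imprinted genes lie in clusters, each governed by an imprinting control region whose DNA methylation differs between the maternal and the paternal copy. In the Kcnq1 domain the long noncoding RNA Kcnq1ot1 is transcribed from the unmethylated paternal copy and silences neighbouring genes in cis, in part through H3K27me3 placed by EZH2 and its partners. Loss of the EZH2 partner Eed in mouse embryos is known to disturb the imprinting of some genes, among them Cdkn1c, Ascl2, Grb10 and Meg3. Many imprinted genes regulate growth: paternally expressed ones often promote it and maternally expressed ones often restrain it.

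The promoters of 5 genes are shown because the results turn on these genes: Phlda2, Plagl1 and Dlk1 had the smallest p among the imprinted genes, Slc22a18 neighbours Phlda2, and Kcnq1ot1 is the noncoding RNA of their domain. The sequences are from RefSeq (GRCm38.p6), run 5′ to 3′ on the strand of the gene from 250 bases before its start to 50 after it, and have every CG dinucleotide, the substrate of DNA methylation, in capitals. CG reads the same on both strands.
Phlda2 (chr7:143502475-143502774, minus strand): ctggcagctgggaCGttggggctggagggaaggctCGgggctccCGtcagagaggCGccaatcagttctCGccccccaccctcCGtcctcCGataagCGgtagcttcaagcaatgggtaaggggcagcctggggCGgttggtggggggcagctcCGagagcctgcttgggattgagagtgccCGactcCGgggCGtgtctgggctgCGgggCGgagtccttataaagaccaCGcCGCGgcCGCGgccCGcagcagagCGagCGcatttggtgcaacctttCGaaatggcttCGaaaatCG
Slc22a18 (chr7:143473539-143473838, plus strand): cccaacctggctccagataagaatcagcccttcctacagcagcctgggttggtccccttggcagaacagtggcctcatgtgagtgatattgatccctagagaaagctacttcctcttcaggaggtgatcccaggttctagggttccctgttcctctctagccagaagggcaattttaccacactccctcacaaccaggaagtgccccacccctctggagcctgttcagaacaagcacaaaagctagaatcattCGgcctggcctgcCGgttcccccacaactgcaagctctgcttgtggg
Kcnq1ot1 (chr7:143296498-143296797, minus strand): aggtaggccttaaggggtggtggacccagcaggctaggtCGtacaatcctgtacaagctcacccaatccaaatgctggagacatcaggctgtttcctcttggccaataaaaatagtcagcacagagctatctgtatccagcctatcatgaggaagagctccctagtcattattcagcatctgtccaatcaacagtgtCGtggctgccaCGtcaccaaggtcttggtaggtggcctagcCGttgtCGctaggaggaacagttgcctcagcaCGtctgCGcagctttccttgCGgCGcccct
Plagl1 (chr10:13090582-13090881, plus strand): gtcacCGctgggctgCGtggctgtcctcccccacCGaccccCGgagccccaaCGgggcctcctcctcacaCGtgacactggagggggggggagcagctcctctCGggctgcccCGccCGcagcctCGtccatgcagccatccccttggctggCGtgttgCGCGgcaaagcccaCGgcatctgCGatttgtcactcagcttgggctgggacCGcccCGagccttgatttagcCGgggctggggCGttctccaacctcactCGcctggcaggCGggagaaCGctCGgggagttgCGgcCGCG
Dlk1 (chr12:109452573-109452872, plus strand): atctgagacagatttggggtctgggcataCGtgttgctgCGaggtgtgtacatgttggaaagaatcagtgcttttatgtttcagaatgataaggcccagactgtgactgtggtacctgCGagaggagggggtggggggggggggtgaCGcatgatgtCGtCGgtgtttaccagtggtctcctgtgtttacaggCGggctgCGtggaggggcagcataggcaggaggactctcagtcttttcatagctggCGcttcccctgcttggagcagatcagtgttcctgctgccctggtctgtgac

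The promoters of Phlda2 and Plagl1 each hold 26 CG dinucleotides in 300 bases, a number that 16.9% of the 32851 promoters in the table reach. Those of Dlk1 and Kcnq1ot1 hold 9 each, which 45.8% reach, and that of Slc22a18 holds 2, which 85.9% reach. The neighbours Phlda2 and Slc22a18 thus differ in the makeup of their promoters. In the table, 27 of the 34 listed genes had 42 promoters, with a median of 14.5 CG dinucleotides against 7 over all promoters. DNA methylation and H3K27me3 were not measured at any of these sequences.

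None of the 31 imprinted genes passed the threshold with GSK126. In limma, with an intensity trend and Benjamini-Hochberg adjustment over all genes, 0 of 31 had an adjusted p under 0.05, where 0.433% of all genes did. At an unadjusted p under 0.05 there were 3 of 31, namely Phlda2, lower with GSK126, and Plagl1 and Dlk1, both higher, where 10.6% of all genes were at this level (4.64% higher and 5.93% lower). The share among the imprinted genes, 9.68%, was thus near that of all genes. Differences are given on the log2 scale, as the GSK126 mean minus the DMSO mean. Their median over the 31 genes was 0.05 (interquartile range -0.04 to 0.11), against -0.0077 over all genes, and 19 had a higher and 12 a lower mean with GSK126. The sign of this median depended on single arrays and on the scaling. It was -0.05 without GSK126 replicate 1 and 0.11 without GSK126 replicate 2. It was -0.0086 with each array centred on its median and -0.0023 after quantile normalization. Over all genes the median was -0.03, 0.0050, -0.06 and -0.02 in the same order, so centring moved all genes down as well. The split of the 31 genes became 13 higher and 18 lower means with centring, and 15 and 16 after quantile normalization. The 95% interval of the difference held 0 for 28 of the 31, and for 19834 of the 22180 named genes. In 20 of the 31 the difference was smaller in size than its standard error (SE), as it was in 12466 of the 22180.

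Many of the imprinted genes were dim. Taking as dim a mean below 4.77, the level that 40% of all genes lie under, 14 of 31 were dim, and for these the size of a difference is uncertain. In bulk RNA a lower level can mean fewer cells that express a gene or less RNA per cell, and these cannot be told apart here.

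**Figure D1:**
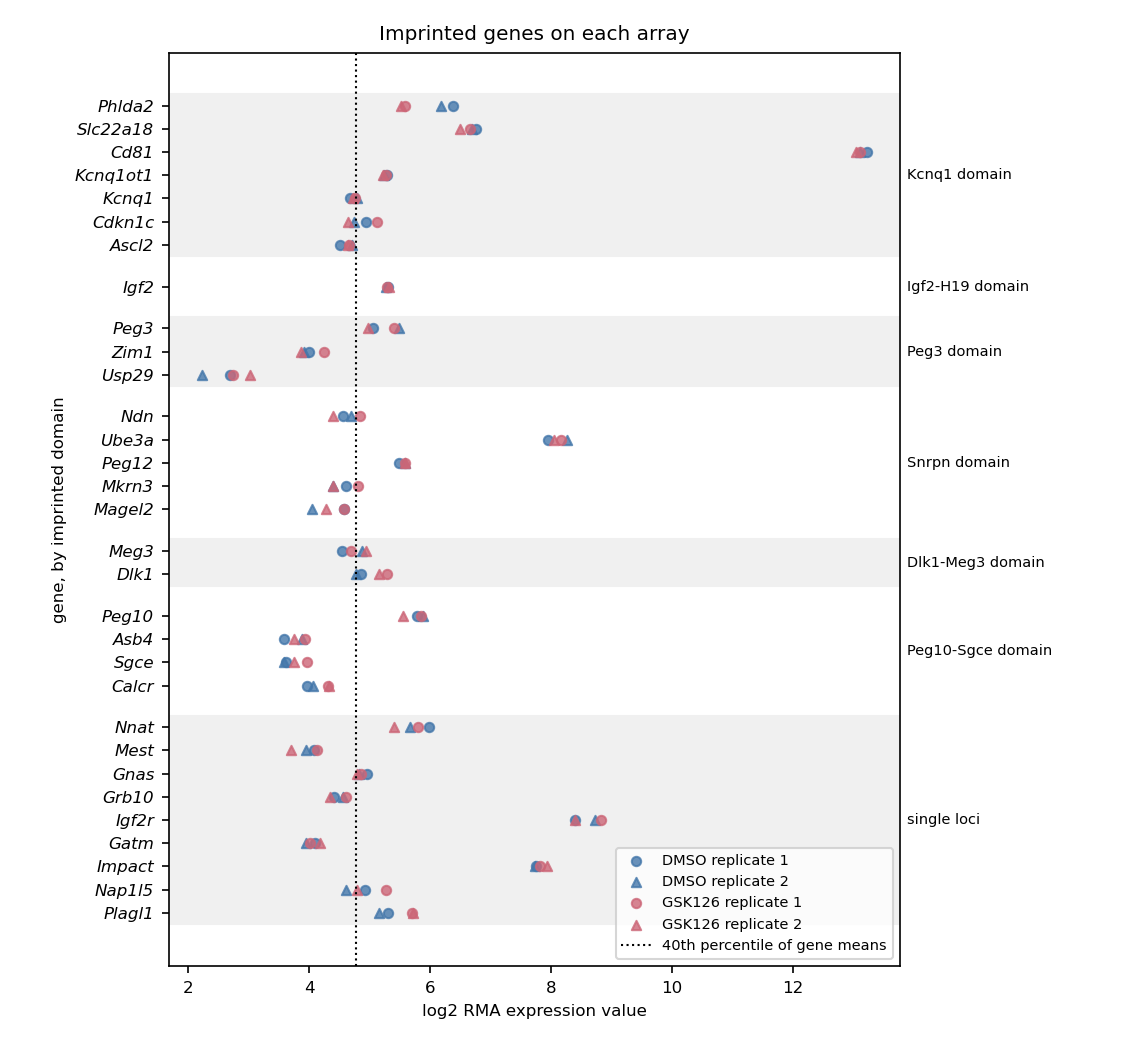
Log2 expression value (x axis) of the 31 imprinted genes (y axis, grouped by domain) on each array, with DMSO in blue, GSK126 in red, circles for replicate 1 and triangles for replicate 2. The dotted line marks 4.77, below which a gene is called dim, and the 2 groups stand clearly apart for Phlda2, whose GSK126 values are 5.59 and 5.51 and whose DMSO values are 6.37 and 6.17.

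Phlda2, a maternally expressed gene whose small pleckstrin-homology protein restrains growth of the placenta, had the largest difference of the 31. Its log2 value was 6.37 and 6.17 on the DMSO arrays and 5.59 and 5.51 on the GSK126 arrays. Both GSK126 values lay below both DMSO values, and the gap between the groups exceeded the gap within either. The difference was -0.72 (SE 0.13, 95% interval -1.02 to -0.42), a 1.65-fold lower level, with an unadjusted p of 0.00066 and an adjusted p of 0.0908 in limma. It ran from -0.82 to -0.62 when 1 array was left out, and its adjusted p over all the alternatives ran from 0.0452, without dim genes, to 0.513, without GSK126 replicate 2.

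The rest of the Kcnq1 domain did not show a difference of this size. Slc22a18, which encodes a membrane protein of the organic cation transporter family and lies next to Phlda2, was at 6.76 and 6.70 with DMSO and at 6.65 and 6.50 with GSK126. Its groups did not overlap, with GSK126 on the lower side, but the difference was -0.15 (SE 0.11, 95% interval -0.41 to 0.11, adjusted p = 0.688 in limma). Cdkn1c, the gene of the cyclin-dependent kinase inhibitor p57, was at 4.94 and 4.74 with DMSO and at 5.12 and 4.64 with GSK126. The GSK126 arrays thus bracketed the DMSO arrays, and the difference of 0.04 (SE 0.19, 95% interval -0.41 to 0.49) leaves a wide interval on both sides of 0.

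Kcnq1ot1 itself was at 5.29 and 5.24 with DMSO and at 5.28 and 5.21 with GSK126, a difference of -0.02 (SE 0.13, 95% interval -0.33 to 0.29). The potassium channel gene Kcnq1, which overlaps it, was dim at 4.67 and 4.78 with DMSO and at 4.76 and 4.73 with GSK126. Ascl2, a transcription factor needed for trophoblast development, was likewise dim at 4.50 and 4.70 with DMSO and 4.66 and 4.65 with GSK126. For these 3 genes the groups overlapped and the arrays lay within a narrow range. Cd81, a widely expressed tetraspanin of the cell surface, was at 13.22 and 13.11 with DMSO and at 13.11 and 13.04 with GSK126 (difference -0.09, SE 0.09). The median difference over the 7 genes of the domain was -0.02, with 3 higher and 4 lower means, and over the 24 genes outside it was 0.09, with 16 higher and 8 lower. Leaving out GSK126 replicate 1 gave medians of -0.12 in the domain and -0.0065 outside it, and leaving out GSK126 replicate 2 gave 0.01 and 0.16. Neither median changed sign with centring or quantile normalization, but under both scalings all 7 genes of the domain had a lower mean. The 24 other genes then split into 13 higher and 11 lower with centring and 15 and 9 after quantile normalization, and all genes into 8100 and 14080 and into 10102 and 12078. In the domain 1 of 7 genes was lower at an unadjusted p under 0.05, where 5.93% of all genes were. Outside it 2 of 24 were higher, where 4.64% of all genes were.

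**Figure D2:**
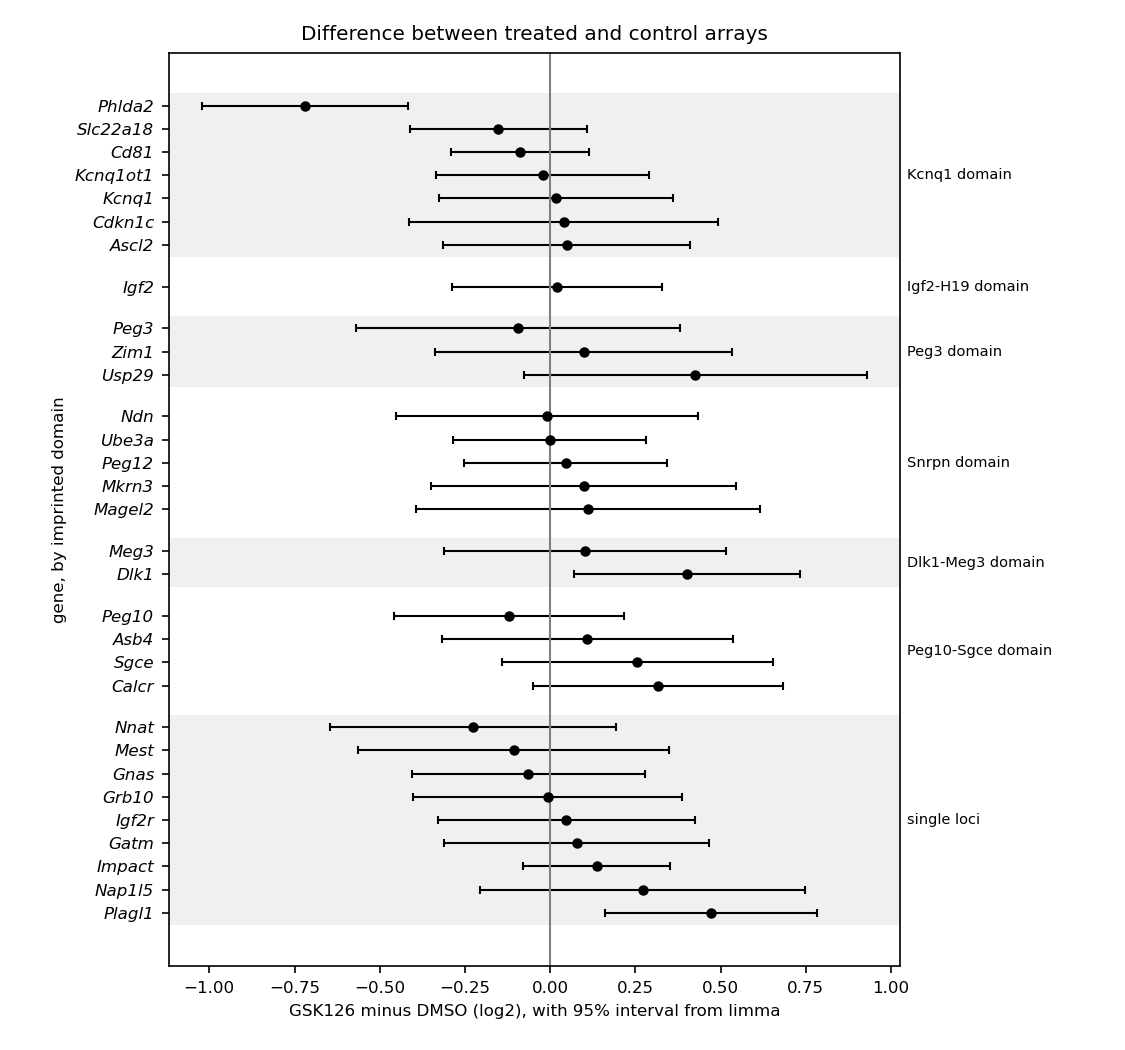
Difference between the GSK126 and DMSO means in log2 units (x axis) for each imprinted gene (y axis, grouped by domain) and its 95% interval from limma over 2 arrays a group. The intervals of Phlda2, Plagl1 and Dlk1 leave out 0, and the other 28 hold it.

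A further 8 genes of the Kcnq1 region that are known as imprinted in some tissue, mostly the placenta, were measured, so that 15 genes stand in annotated order from Ascl2 to Dhcr7. Of these, 8 had a higher and 7 a lower mean with GSK126, with 0 past the threshold in limma and a median difference of 0.02. At an unadjusted p under 0.05, 3 were higher and 2 lower, where all genes had 4.64% and 5.93%. The groups did not overlap for 9 of the 15, where this held for 40.1% of all genes. Tssc4 was at 7.32 and 7.26 with DMSO and at 6.98 and 6.99 with GSK126, a difference of -0.30 (SE 0.10, adjusted p = 0.342 in limma). The neighbouring decoy receptor genes Tnfrsf22 and Tnfrsf23, whose products bind the death ligand TRAIL, lay on the other side. Tnfrsf22 was at 7.52 and 7.44 with DMSO and at 7.78 and 7.78 with GSK126 (0.30, SE 0.09, adjusted p = 0.327). Tnfrsf23 was at 10.79 and 10.45 with DMSO and at 10.93 and 11.01 with GSK126 (0.35, SE 0.12, adjusted p = 0.380). Osbpl5, of the oxysterol-binding protein family, had a difference of 0.23 (SE 0.10) and was the third with a higher mean at an unadjusted p under 0.05. Values on both sides of 0 therefore stood next to each other along the region. Probe sets of the similar genes Tnfrsf22 and Tnfrsf23 may share sequence, which was not checked.

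**Figure D3:**
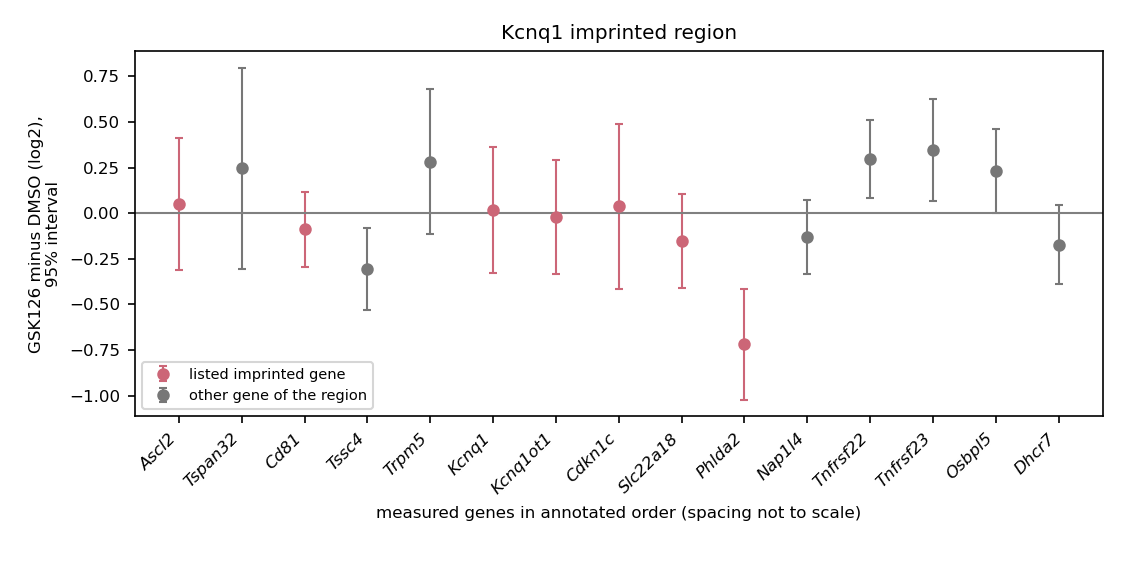
Difference between the GSK126 and DMSO means in log2 units and its 95% interval (y axis) for the 15 measured genes of the Kcnq1 region in annotated order (x axis, spacing not to scale), listed imprinted genes in red and other genes of the region in grey. Phlda2 stands at -0.72, between Slc22a18 at -0.15 and Nap1l4 at -0.13, and Tnfrsf22, Tnfrsf23 and Osbpl5 lie between 0.23 and 0.35.

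Among the single loci, Plagl1, a zinc finger transcription factor expressed from the paternal copy that regulates other imprinted genes, had the largest positive difference of the 31. It was at 5.31 and 5.15 with DMSO and at 5.70 and 5.71 with GSK126, so both treated arrays lay above both controls. The difference was 0.47 (SE 0.13, 95% interval 0.16 to 0.78), a 1.39-fold higher level, with an unadjusted p of 0.00846 and an adjusted p of 0.287 in limma. A second probe set of Plagl1, at 1.77 and 1.89 with DMSO and at 1.91 and 1.87 with GSK126, had a difference of 0.07 (SE 0.17). That probe set lay far below 4.77, the level for calling a gene dim. With the probe sets averaged the difference of Plagl1 was 0.27 (adjusted p = 0.620), 1.76 times smaller.

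Dlk1, a paternally expressed relative of the Notch ligands that holds back adipocyte differentiation, was at 4.85 and 4.78 with DMSO and at 5.28 and 5.16 with GSK126. Its groups did not overlap either, and the difference was 0.40 (SE 0.14, 95% interval 0.07 to 0.73, unadjusted p = 0.0237, adjusted p = 0.390 in limma). Meg3, the maternally expressed noncoding RNA of the same domain, was at 4.54 and 4.87 with DMSO and at 4.69 and 4.93 with GSK126 (0.10, SE 0.18, 95% interval -0.31 to 0.52). The groups of Meg3 overlapped, and the gap between the DMSO arrays exceeded the difference. Usp29, a deubiquitinase gene of the Peg3 domain, had a difference of 0.43 (SE 0.22) but was dim, at 2.69 and 2.23 with DMSO and 2.74 and 3.02 with GSK126, with an adjusted p of 0.547. With Phlda2, Plagl1 and Dlk1 it made 4 of 31 genes with an absolute difference of at least 0.4, which 6.45% of all genes reached.

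The groups did not overlap for 8 of the 31 imprinted genes, against 40.1% of all genes. GSK126 was on the lower side for Phlda2 and Slc22a18, against 21.8% of all genes. It was on the higher side for 6 genes, against 18.2%. These were Plagl1, Dlk1, Usp29, Calcr, Sgce and Impact. Calcr, the calcitonin receptor gene (0.32, SE 0.16), and Sgce, which encodes epsilon-sarcoglycan (0.26, SE 0.17), belong to the Peg10-Sgce domain and were dim in both groups. Their neighbours Peg10, a gene derived from a retrotransposon and required for placental development (-0.12, SE 0.14), and the dim Asb4 (0.11, SE 0.18) had overlapping groups. Impact, a regulator of translation that restrains the kinase GCN2, was at 7.75 and 7.73 with DMSO and at 7.82 and 7.93 with GSK126 (0.14, SE 0.09, adjusted p = 0.657 in limma).

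The growth factor and insulin pathway members showed small differences. Igf2, the paternally expressed growth factor, was at 5.30 and 5.26 with DMSO and at 5.28 and 5.32 with GSK126, a difference of 0.02 (SE 0.13, 95% interval -0.29 to 0.33). Igf2r, the maternally expressed receptor that clears IGF2, was at 8.39 and 8.72 with DMSO and at 8.82 and 8.39 with GSK126 (0.05, SE 0.16). Within each group its arrays were further apart than the groups. Grb10, an adaptor that restrains insulin receptor signalling, was dim and had a difference of -0.0076 (SE 0.17, 95% interval -0.40 to 0.39).

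In the Snrpn domain, counterpart of the human Prader-Willi and Angelman region, all 5 measured genes had overlapping groups. Ube3a, the ubiquitin ligase gene that is imprinted in neurons, was at 7.95 and 8.26 with DMSO and at 8.16 and 8.05 with GSK126, a difference of -0.0011 (SE 0.12). The MAGE family genes Ndn (-0.0094) and Magel2 (0.11), the ubiquitin ligase gene Mkrn3 (0.10) and Peg12 (0.05) had SEs from 0.13 to 0.22. In the Peg3 domain the zinc finger genes Peg3 (-0.09, SE 0.20) and Zim1 (0.10, SE 0.19) had overlapping groups too. The same held for the remaining single loci, which were Nap1l5 of the nucleosome assembly family (0.27), the proteolipid gene Nnat (-0.23), Mest (-0.11), the creatine synthesis gene Gatm (0.08) and Gnas, the locus of the stimulatory G protein alpha subunit (-0.06). A second probe set of Nnat had a difference of 0.11 (SE 0.16), opposite in sign. It lay below the dim level of 4.77, at 4.08 and 4.22 with DMSO and at 4.21 and 4.31 with GSK126. Which of the several transcripts of Gnas its probe set reads was not checked.

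Grouped by the copy that is usually expressed, the median difference was 0.07 over 16 paternally expressed genes (10 higher and 6 lower means) and 0.05 over 13 maternally expressed genes (9 higher and 4 lower). Grb10 and Gnas, whose expressed copy depends on the tissue, were left out of both. Ube3a, imprinted in neurons, was counted as maternally expressed, and which copy these cells expressed was not measured for any gene. The maternal median was -0.0060 with centred arrays, where that of all genes was -0.06. Without GSK126 replicate 1 the paternal and the maternal median turned negative (-0.0012 and -0.06), where that of all genes was -0.03.

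The treated arrays differed from each other, and so did the DMSO arrays. GSK126 replicate 1 was above GSK126 replicate 2 for 24 of 31 imprinted genes (77.4%), against 56.7% of all genes, with a median gap of 0.12 against 0.03. The share was 72.3% in the wider list of other imprinted genes and 80% among imprint regulators. DMSO replicate 1 was above DMSO replicate 2 for 19 of the 31 (61.3%), against 52.1% of all genes. That share was 66% in the wider list and 46.7% among imprint regulators. GSK126 replicate 1 was higher than GSK126 replicate 2 by at least 0.4 for 8 of the 31 genes, against 6.4% of all genes, and lower by as much for 0. The 8 were Cdkn1c, Nap1l5, Ndn, Igf2r, Peg3, Mest, Mkrn3 and Nnat, a group chosen after its values were seen. For Cdkn1c the gap was 0.48 and for Igf2r 0.43, each larger than the difference between the treatments. In all, the gap between the treated arrays exceeded the difference between treatments for 20 of the 31 genes (64.5%), against 55% of all genes. The gap between the treated arrays exceeded that between the DMSO arrays for 17 of the 31 (54.8%), against 51.3% of all genes. Over all probe sets GSK126 replicate 2 correlated least with the other arrays (0.981 to 0.983), and the DMSO arrays correlated at 0.988. The part of a hybridisation or culture difference in this was not tested.

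**Figure D4:**
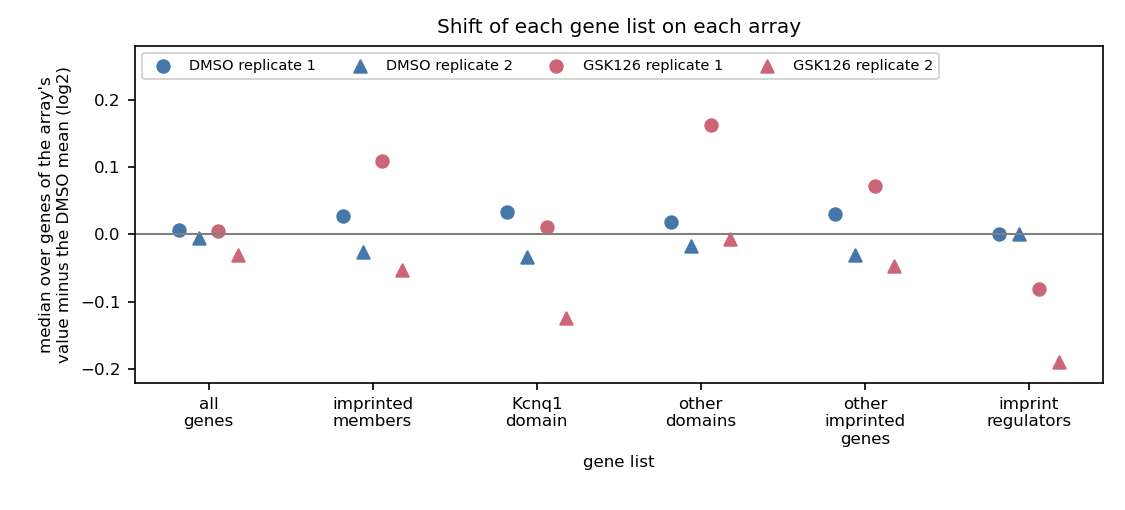
For each gene list (x axis), the median over its genes of an array's log2 value minus the gene's DMSO mean (y axis), with DMSO in blue, GSK126 in red, circles for replicate 1 and triangles for replicate 2. The imprinted genes stand at 0.11 on GSK126 replicate 1 and at -0.05 on replicate 2, while the imprint regulators stand at -0.08 and -0.19.

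A wider list of other genes known as imprinted in the mouse gave the same count past the threshold. Of 54 listed, 47 were measured, and 0 passed in limma. At an unadjusted p under 0.05 there were 7 (14.9%, against 10.6% of all genes), with 5 on the higher and 2 on the lower side, where all genes had 4.64% and 5.93%. Their median difference was 0.03 (interquartile range -0.06 to 0.20), and -0.02 with centred arrays, where all genes had -0.0077 and -0.06. The smallest p was that of Gab1, a docking protein of receptor tyrosine kinases, which was at 8.43 and 8.42 with DMSO and at 8.17 and 7.98 with GSK126 (-0.35, SE 0.10, adjusted p = 0.280). It was followed by the actin regulator gene Cobl (0.30, SE 0.09), by Tnfrsf22, Tssc4 and Tnfrsf23, and by the phospholipid flippase gene Atp10a (0.25, SE 0.09). In early embryos and extraembryonic tissue Gab1, Sfmbt2, Jade1, Slc38a4 and Smoc1 are known to be imprinted through maternal H3K27me3. The other 4 of these had differences from -0.06 for Smoc1 to 0.06 for Sfmbt2.

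Genes listed as imprint regulators had mostly lower means with GSK126, but 0 of 15 passed in limma. Of these 15, 11 had a lower mean (73.3%, against 52% of all genes) and 4 a higher one. Without dim genes, 11 had a lower and 1 a higher mean, where all genes had 7829 and 5479. The median of the 15 was -0.13, and -0.18 with centred arrays, where all genes had -0.0077 and -0.06. Without 1 array the median of the 15 ran from -0.19 to -0.08. At an unadjusted p under 0.05 there were 2 (13.3%, against 10.6% of all genes), both with lower means. Uhrf1, which brings the maintenance DNA methyltransferase to replicated DNA, was at 8.84 and 8.78 with DMSO and at 8.46 and 8.40 with GSK126 (-0.38, SE 0.08, adjusted p = 0.176). Trim28, the corepressor that KRAB zinc finger proteins bring to imprinting control regions, was at 10.38 and 10.32 with DMSO and at 10.16 and 10.08 with GSK126 (-0.23, SE 0.08, adjusted p = 0.393). The groups did not overlap for either. This held for 8 of the 15, against 40.1% of all genes, with GSK126 on the lower side for 7, against 21.8%. The histone methyltransferase genes Ehmt1 and Setdb1 (both -0.18), the DNA methyltransferase gene Dnmt3a (-0.19) and Zfp445 (-0.18), a KRAB zinc finger gene, followed. Uhrf1 acts at replicated DNA, and any tie of its value to DNA replication was not tested. The drug acts on the EZH2 enzyme, so mRNA does not check the labels. Ezh2 was at -0.19 (SE 0.09), Eed at -0.14, Suz12 at -0.08 and Ezh1 at 0.11, with adjusted p from 0.499 to 0.846 in limma.

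Epithelial markers were present, as the labelled tissue calls for. Of 9 measured, 8 were not dim, among them Krt18 with a mean of 11.7 and Epcam at 10.6 with DMSO, and the summed log2 level of the 9 ran from 85.06 to 85.96 with DMSO and from 84.87 to 85.01 with GSK126. Single markers lay on both sides, with Krt14 at -0.51 (SE 0.18) and Cldn4 at 0.39 (SE 0.08). For 5 of the 9 the groups did not overlap, where this held for 40.1% of all genes. Of the markers of other cell types, 3 of 4 endothelial, 4 of 5 immune, 3 of 4 adipocyte and 2 of 7 fibroblast markers were dim. The summed level of the fibroblast markers ran from 33.4 to 34.1 with DMSO and from 34.4 to 35.0 with GSK126. Of the 7, 6 had a higher mean with GSK126, where 10651 of the 22180 named genes did. Without GSK126 replicate 1 it was 3 of the 7. The dim Pdgfra was at 0.45 and Thy1 at 0.35. Col1a2, Col3a1, Lum and Pdgfrb were at 0.06 to 0.09, each below its SE, and Col1a1 was at -0.12. The adipocyte sum ran from 15.1 to 15.6 and from 15.6 to 15.9, with the dim Fabp4 at 0.62, Adipoq at 0.01, Plin1 at -0.06 and Lep at -0.15. The immune sum ran from 20.51 to 20.59 with DMSO and from 20.03 to 20.27 with GSK126. The endothelial sum ran from 17.8 to 18.4 and from 17.7 to 18.8. The part of other cell types in the values of the imprinted genes was not tested.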

How the data were processed

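Per the labels, the authors made the deposited log2 expression values in Expression Console by robust multi-array averaging (RMA) of core exons. Affymetrix Power Tools is named in the submitters' processing notes, without a version. No build is named in the sources used here. RMA already aligns the arrays, which can hide a shift shared by most genes. The number of arrays limits the precision.

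Of 41345 probe sets, 23521 carried 1 gene symbol, 1814 several and 16010 none in the platform annotation, and 23328 matched RefSeq (GRCm38.p6) by Entrez identifier. The highest-mean probe set represented each gene. Differences were fitted over 22180 genes with limma 3.58.1 in R 4.3.3 (intensity trend, two-sided moderated test, Benjamini-Hochberg adjustment, threshold 0.05, 2 residual and 5.57 prior degrees of freedom). The procedure was tested on simulated data whose planted differences were larger than any among the imprinted genes. That test does not show how often smaller differences would be found. No list was tested as a set. Array medians over all probe sets were 4.74 and 4.73 with DMSO and 4.79 and 4.78 with GSK126, so centring lowers the GSK126 values relative to DMSO. Pairs of arrays shared at most 181 identical values.

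The imprinted genes, the lists and their markers were chosen with earlier results of these data known. Values on every array are given for genes with an unadjusted p under 0.05, an absolute difference of at least 0.4, a place in the Kcnq1 domain or 1 of the 6 highest means, and for some further genes. Up to 6 genes with the smallest p are named from the wider list of imprinted genes and from the imprint regulators, beside the genes of the drug target. The alternatives were no intensity trend, a robust prior, no dim genes, averaged probe sets, probe sets one by one, quantile normalization, centring, a block for the replicate number and leaving out each array.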

Additional observations from a re-analysis of the deposited data

How the results depend on the processing

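With dim genes left out, 1 imprinted gene passed, Phlda2 (adjusted p = 0.0452), among 17 tested. Under the other 10 alternatives that tested the 31 genes, 0 passed in limma, with 1 to 4 at an unadjusted p under 0.05. None of the other imprinted genes or imprint regulators passed under any of the 11 in limma. Without 1 array the median difference ran from -0.053 to 0.11 over the imprinted genes, from -0.12 to 0.011 over the Kcnq1 domain and from -0.0065 to 0.16 over the other domains. The median of the imprinted genes was -0.0011 without dim genes, -0.0086 with centred arrays and -0.0023 after quantile normalization. Over all genes the median was -0.03, -0.06 and -0.02 in the same order. Of the 31 genes, 12 kept their sign without any 1 array and 19 did not. Over all genes 96 passed, against 0 without the intensity trend, 149 without dim genes, 10 with the replicate block and 0 to 4 without 1 array. With the replicate number as a block, 0 imprinted genes passed in limma, and Phlda2 had an adjusted p of 0.198. Same-numbered arrays did not deviate together (correlation -0.02 over probe sets). A value near 0 cannot show whether they share a culture, line or day, since such an effect may be small against array noise. With probe sets tested one by one, Phlda2 had an adjusted p of 0.110.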
